A study of Mus musculus with 8 samples.

Results

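The genes described here encode the ephrins and their Eph receptors, the Slit ligands and their Robo receptors, and the netrins with their receptors of the Unc5 family, Dcc and Neo1. They were taken from the deposited counts by symbol alone, though the genes were chosen with earlier results of these data known. They make up 39 of 55536 genes: 14 Eph receptors, 8 ephrins, 3 Slits, 4 Robos, 4 netrins and 6 netrin receptors. The cells were MIN6, an insulin-producing line derived from a mouse pancreatic β-cell tumour, of wild-type genotype per the labels. For 48 h they had been transfected, with Lipofectamine 3000, with the empty vector pcDNA 3 (control, 4 libraries) or with the plasmid pGloMyc-Klf4 (called Klf4 libraries here, 4 of them), and replicates 1 and 2 of each group formed batch 1 and replicates 3 and 4 batch 2. The plasmids differ in name beyond Klf4, so Klf4 and the backbone cannot be told apart. The share of cells that took up a plasmid was not given, and in RNA from whole cultures a change in the number of expressing cells and a change per cell cannot be told apart. The extraction text speaks of islets, while every sample is labelled as MIN6.

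These families carry short-range and secreted guidance cues, best known from growing axons. Ephrins are bound to the cell surface, ephrin-A proteins by a lipid anchor and ephrin-B proteins by a transmembrane segment, and both they and the Eph receptor tyrosine kinases on the neighbouring cell signal on contact. In pancreatic islets, EphA receptors and ephrin-A proteins on adjacent β cells are known to act in opposite directions on insulin secretion. Slits are secreted and bind Robo receptors, which are known to keep islet cell types in their places. Netrins are secreted, laminin-related proteins that attract through Dcc and Neo1 and repel through Unc5 receptors.

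The 8 libraries held 45417853 to 52731176 counts. Klf4 itself checked the labels: it lay between 36.1 and 42.8 CPM (counts scaled to library size with TMM factors) in control libraries and between 4532 and 5853 CPM in Klf4 libraries (log2 fold change 6.97 ± 0.07 SE, adjusted p 1.21e-25 by edgeR), with plasmid and endogenous transcripts counted together. Of the 9 β-cell markers examined, all were present, with a summed level of 25410 to 32060 CPM in control and 23670 to 32280 CPM in Klf4 libraries. Of these 9, 7 fell, by at most 0.22 on the log2 scale. All 9 were above 100 CPM in control, a level at which 34.8% of all genes fell. Markers of other cells were scarce in control libraries, with summed levels of 2.61 to 3.86 CPM for 6 mesenchymal, 4.10 to 4.42 CPM for 4 endothelial, 5.63 to 6.23 CPM for 4 leukocyte, 0.191 to 0.370 CPM for 4 acinar and 1.28 to 1.77 CPM for 4 ductal genes. In Klf4 libraries these sums were 20.3 to 26.7, 5.01 to 5.28, 5.48 to 7.16, 0.243 to 0.387 and 4.48 to 5.84 CPM. In Klf4 libraries most of the mesenchymal sum was Dcn (0.0461 against 17.6 CPM), while Lum had no count in any library. The 4 neuronal or glial genes summed to 244 to 255 CPM in control and 259 to 273 CPM in Klf4 libraries, nearly all of it Tubb3 (247 and 262 CPM). All 3 neuronal or glial genes tested rose, among them Rbfox3 from 1.21 to 2.98 CPM (log2 fold change 1.29 ± 0.17 SE, adjusted p 1.8e-06 by edgeR) and Sox10 from 0.0416 to 0.981 CPM (log2 fold change 4.49 ± 0.39 SE, adjusted p 3.42e-09 by edgeR), while S100b was too low to test. Of the other lists, 2 of 3 mesenchymal, 1 of 3 endothelial, 2 of 2 ductal and 0 of 1 leukocyte genes tested rose, and no acinar gene passed the filter. Among the increases, Sox10, Dcn, Cdh5 and Krt19 passed the filter on low counts only because Klf4 libraries did. Being tested thus already favoured higher Klf4 values for them. Over all genes tested 21.1% rose, and 29.4% of those under 1 CPM in control. Krt19, a ductal keratin, went from 0.237 to 3.24 CPM (log2 fold change 3.76 ± 0.20 SE, adjusted p 3.67e-13 by edgeR). What part these genes have in the results was not tested.

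The main question was which of these signalling genes differ between Klf4-transfected and control cells. Of the 39 genes, 35 passed the filter on low counts and were tested in a fit over 18266 genes. By edgeR's quasi-likelihood test with a batch term, 19 rose, 2 fell and 14 did not pass an adjusted p of 0.05. Over all genes tested, 21.1% rose and 15.5% fell, 36.6% in all. Of the 35, 8 rose by a log2 fold change of at least 1, against 8.5% of all genes. The median log2 fold change (Klf4 over control) was 0.43 over the 35 genes and -0.01 over all genes tested. In 20 of the 35 the lowest Klf4 value exceeded the highest control value, against 17.2% of all genes, and in 1, Robo2, the order was the reverse, against 8.93%. When the libraries were scaled on abundant genes alone, 72.8% of the calls over all genes were increases, against 57.7% with the main scaling. Under that scaling neither of the 2 decreases among these genes passed the test.

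Part of this count is set by the filter, which a gene can pass through the Klf4 libraries alone. The genes at the filter's level (0.204 CPM) in all 4 control libraries numbered 29, of which 14 rose and 2 fell. Over all genes at that level in the controls, 18.1% rose and 17.4% fell. The median log2 fold change was 0.29 over the 29 genes and -0.03 over all genes at that level in the controls. The other 6 were Epha4, Ephb6, Robo4, Efna4, Ntn3 and Ntn4, of which 5 rose. Fewer than 4 control libraries reached that level for these 6, so they passed only because Klf4 libraries did. The 5 that rose are also among the genes whose groups did not overlap.

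The increases lay mostly in the ephrin and Eph families. Of 20 Eph receptors and ephrins tested, 13 rose and none fell, against the 21.1% and 15.5% of all genes. Of the 15 Slit, Robo, netrin and netrin receptor genes tested, 6 rose and 2 fell, and the difference between the families was not tested. Both counts of increases include genes that passed the filter only through Klf4 libraries. These were Ephb6 and Efna4 in the first group and Robo4, Ntn3 and Ntn4 in the second. Summed over its 22 genes, the ephrin and Eph group had 171 ± 5.93 CPM in control and 283 ± 15.8 CPM in Klf4 libraries (SD, n = 4). The 17 other genes summed to 1052 ± 22.8 and 1056 ± 13.9 CPM, a difference within the spread between replicates. This sum joins families that went in opposite directions. The Unc5 genes went from 155 to 185 CPM and the netrins from 27.4 to 38.0 CPM. The abundant Slits went from 415 to 399 CPM, the Robos from 308 to 289 CPM, and Dcc with Neo1 from 146 to 144 CPM.

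**Figure D1:**
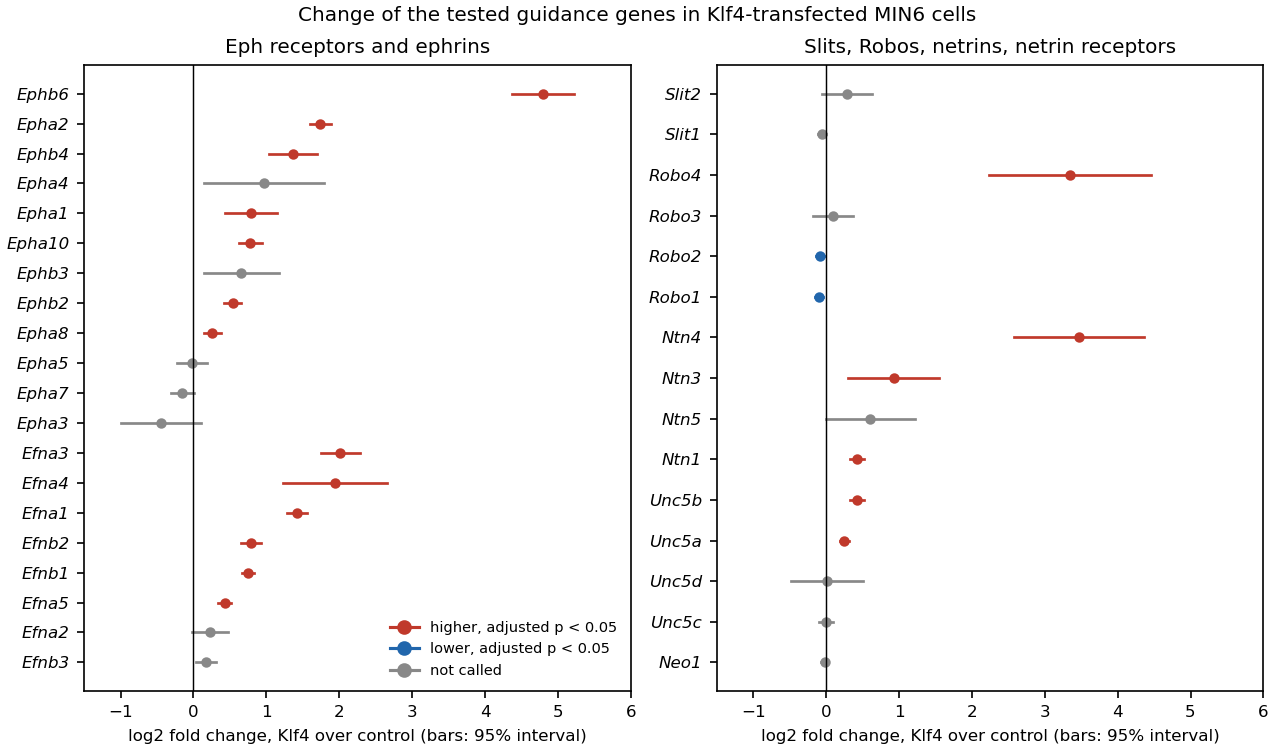
Log2 fold change (x axis, Klf4 over control, with its 95% interval from the standard error) for the 20 Eph and ephrin genes (left) and the 15 other guidance genes (right) that were tested. Red points passed the test upwards, blue points downwards and grey points did not pass; 13 of 20 on the left and 6 of 15 on the right are red.

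Among the ligands, all 5 ephrin-A and all 3 ephrin-B genes were tested, and 4 and 2 rose, against 21.1% of all genes tested. The largest changes were in Efna3, Efna4 and Efna1, which lie close together on the minus strand of chromosome 3 within 66.3 kb. Efna3 (ENSMUSG00000028039, chromosome 3, 89313899 to 89322965, minus strand, GRCm38) had 4.12, 2.94, 3.39 and 2.30 CPM in control replicates 1 to 4 and 10.8, 10.5, 14.3 and 16.4 CPM in the Klf4 replicates. The lowest Klf4 library was above the highest control library, and the means, 3.19 ± 0.766 and 13.0 ± 2.83 CPM (SD, n = 4), differed 4.08-fold (log2 fold change 2.02 ± 0.14 SE, adjusted p 4.05e-11 by edgeR). Efna1 (ENSMUSG00000027954, chromosome 3, 89271733 to 89281142, minus strand), the ligand best known for binding EphA2, had 4.23, 4.56, 5.38 and 5.49 CPM in control and 11.2, 11.9, 14.8 and 14.9 CPM in Klf4 libraries. Its groups did not overlap, and the change was 2.69-fold (log2 fold change 1.42 ± 0.07 SE, adjusted p 1.54e-13 by edgeR). Efna4 (ENSMUSG00000028040, chromosome 3, 89333390 to 89338028, minus strand) was scarce throughout, with 7, 10, 5 and 8 counts in control and 33, 16, 35 and 41 counts in Klf4 libraries. The groups were again separate (log2 fold change 1.95 ± 0.36 SE, adjusted p 0.000171 by edgeR), and the means were 0.155 ± 0.0431 and 0.609 ± 0.180 CPM (SD, n = 4).

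Both Efna3 and Efna4 share exonic bases with a gene on the other strand, 344 and 168 bases, and the strand setting of the counting is not given in the sources used here. These neighbours had 0.481 and 0.134 CPM in control and 0.588 and 0.272 CPM in Klf4 libraries, and neither passed the test (edgeR adjusted p 0.451 and 0.081). In all, 11 of the 39 genes share exonic bases with another gene, 7 of them called, and reads from such bases could belong to either gene. Because these 3 ephrin genes lie close together and all rose, their RefSeq promoter windows (GRCm38.p6, 250 bases before to 50 after the start site, written on the gene's strand) are shown, at chr3:89280902-89281201, chr3:89322890-89323189 and chr3:89337979-89338278. Capitals mark matches to GGGTGTG, a core of the published Klf4 binding motif, or to CACCC, the box bound by Krüppel-like factors, on either strand; the reverse complement of GGGTGTG contains CACCC.
Efna1: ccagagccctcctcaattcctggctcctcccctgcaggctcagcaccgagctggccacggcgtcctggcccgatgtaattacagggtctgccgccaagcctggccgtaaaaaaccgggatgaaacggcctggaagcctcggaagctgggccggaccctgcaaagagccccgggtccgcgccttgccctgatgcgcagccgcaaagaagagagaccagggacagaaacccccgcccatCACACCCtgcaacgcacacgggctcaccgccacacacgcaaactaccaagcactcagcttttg
Efna3: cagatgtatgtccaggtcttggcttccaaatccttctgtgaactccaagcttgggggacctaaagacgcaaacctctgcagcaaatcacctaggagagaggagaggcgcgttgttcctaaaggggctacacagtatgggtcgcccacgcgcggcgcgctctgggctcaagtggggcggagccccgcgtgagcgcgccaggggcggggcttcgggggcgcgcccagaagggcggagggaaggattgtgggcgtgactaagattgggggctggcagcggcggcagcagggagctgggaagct
Efna4: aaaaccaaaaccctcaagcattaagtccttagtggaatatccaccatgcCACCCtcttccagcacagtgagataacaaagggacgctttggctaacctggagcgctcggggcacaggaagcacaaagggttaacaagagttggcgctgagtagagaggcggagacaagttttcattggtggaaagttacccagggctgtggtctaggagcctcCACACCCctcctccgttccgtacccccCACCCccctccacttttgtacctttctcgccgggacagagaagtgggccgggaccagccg

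The windows of Efna1 and Efna4 each held 1 match to GGGTGTG, starting 13 and 37 bases before the start site, and that of Efna3 held neither motif. Windows of 34 of the 39 genes were read, taking for a gene with several the one nearest its GENCODE start. The window of Robo1 lay 354843 bases from that start, and that of Epha10, the next furthest, 886 bases. GGGTGTG was in 4 of the 34, among them 3 of the 18 whose genes rose, and in 8.0% of all 32851 windows. The third window of a raised gene was that of Efnb1, and the remaining one belonged to Epha5, which did not pass the test. CACCC was in 25 of 34, in 14 of the 18 whose genes rose, and in 57.5% of all windows. A match describes the letters of the window and no binding was measured.

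The log2 fold changes of the other 5 ephrins were all below 1. Efnb1 (ENSMUSG00000031217, chromosome X, 99136130 to 99148991, plus strand), a transmembrane ligand of EphB receptors, had 39.3, 36.8, 34.5 and 37.6 CPM in control and 60.2, 62.9, 61.5 and 64.0 CPM in Klf4 libraries. The 2 sets of values were far apart relative to their spread, and the change was 1.68-fold (log2 fold change 0.75 ± 0.04 SE, adjusted p 8.85e-13 by edgeR). Efnb2 (ENSMUSG00000001300, chromosome 8, 8617434 to 8661242, minus strand), the ligand of EphB4, had 10.2, 10.4, 7.71 and 7.44 CPM in control and 16.2, 16.2, 13.7 and 15.4 CPM in Klf4 libraries. Both groups were lower in batch 2, yet all Klf4 values exceeded all control values (log2 fold change 0.79 ± 0.07 SE, adjusted p 3.58e-09 by edgeR). Efna5, the ephrin studied in β cells, rose by 0.43 on the log2 scale (1.47e-07, edgeR adjusted p), with means of 33.6 ± 2.22 and 45.2 ± 1.94 CPM. Efna2 did not pass the test (log2 fold change 0.23, 95% interval -0.02 to 0.47, edgeR adjusted p 0.170). Efnb3, with 9.05, 7.99, 8.46 and 8.54 CPM in control and 9.99, 9.19, 9.64 and 9.46 CPM in Klf4 libraries, had groups that did not overlap and an edgeR adjusted p of 0.0637. Scaled on abundant genes, Efnb3 passed (log2 fold change 0.21, adjusted p 0.0284).

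Of the 12 Eph receptors tested, 7 rose: 4 of 8 EphA and 3 of 4 EphB genes, against 21.1% of all genes tested. The 2 furthest from control were Ephb6 and Epha2. Ephb6 (ENSMUSG00000029869, chromosome 6, 41605482 to 41620509, plus strand) encodes a receptor whose kinase domain is inactive. It was close to absent in control cells, with 10, 9, 5 and 9 counts, and had 226, 149, 322 and 297 counts in Klf4 replicates 1 to 4. It passed the filter on low counts only because Klf4 libraries did. The mean went from 0.171 ± 0.0483 to 4.86 ± 1.28 CPM (SD, n = 4), a 28.3-fold difference (log2 fold change 4.80 ± 0.22 SE, adjusted p 2.58e-14 by edgeR). Epha2 (ENSMUSG00000006445, chromosome 4, 141301240 to 141329384, plus strand), a receptor typical of epithelial cells, had 12.4, 10.5, 9.98 and 9.53 CPM in control and 32.9, 32.5, 36.7 and 39.8 CPM in Klf4 libraries. Every Klf4 value was more than 2-fold the highest control value, and the means differed 3.34-fold (log2 fold change 1.74 ± 0.07 SE, adjusted p 9.36e-15 by edgeR). The promoter windows of both receptors are shown for comparison with the ephrin windows, with the same marking, at chr4:141300971-141301270 (plus strand) and chr6:41605261-41605560 (plus strand). That of Epha2 held 2 matches to CACCC and none to GGGTGTG, and that of Ephb6 held neither.
Epha2: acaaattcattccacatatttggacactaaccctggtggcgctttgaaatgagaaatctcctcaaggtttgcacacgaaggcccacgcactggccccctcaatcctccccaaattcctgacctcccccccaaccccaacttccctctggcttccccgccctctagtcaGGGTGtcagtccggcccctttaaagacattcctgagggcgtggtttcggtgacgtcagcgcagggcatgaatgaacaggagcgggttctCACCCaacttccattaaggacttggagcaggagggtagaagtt
Ephb6: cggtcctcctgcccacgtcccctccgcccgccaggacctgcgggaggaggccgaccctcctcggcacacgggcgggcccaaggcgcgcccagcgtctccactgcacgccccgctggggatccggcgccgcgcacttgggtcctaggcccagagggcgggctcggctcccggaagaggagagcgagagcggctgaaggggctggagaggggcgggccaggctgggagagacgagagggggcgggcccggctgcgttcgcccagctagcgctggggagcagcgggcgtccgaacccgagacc

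Ephb4 (ENSMUSG00000029710, chromosome 5, 137350109 to 137378669, plus strand), the receptor that pairs with ephrin-B2, had 0.892, 1.56, 1.03 and 1.28 CPM in control and 2.71, 2.67, 3.33 and 3.68 CPM in Klf4 libraries. The groups were separate, with a 2.60-fold change (log2 fold change 1.37 ± 0.17 SE, adjusted p 7.46e-07 by edgeR). Epha10 (ENSMUSG00000028876, chromosome 4, 124880899 to 124917800, plus strand), another receptor without kinase activity, had 7.75, 8.87, 9.51 and 9.07 CPM in control and 14.4, 14.2, 13.8 and 18.1 CPM in Klf4 libraries. Replicate 4 was the highest of the Klf4 values, and the other 3 were also above all controls (log2 fold change 0.78 ± 0.08 SE, adjusted p 2.69e-08 by edgeR). Epha1 (ENSMUSG00000029859, chromosome 6, 42358487 to 42373268, minus strand) had 1.02, 0.883, 0.811 and 1.06 CPM in control and 1.61, 1.46, 1.65 and 1.82 CPM in Klf4 libraries (log2 fold change 0.79 ± 0.18 SE, adjusted p 0.00133 by edgeR). It shares 236 exonic bases with Zyx, which was far more abundant, at 102 CPM in control and 114 CPM in Klf4 libraries and also rose (log2 fold change 0.17, edgeR adjusted p 0.000139). Ephb2 (ENSMUSG00000028664, chromosome 4, 136647539 to 136835988, minus strand), a kinase-active receptor of ephrin-B proteins, had 17.3, 16.2, 14.8 and 15.5 CPM in control and 21.5, 23.5, 23.1 and 24.4 CPM in Klf4 libraries, without overlap (log2 fold change 0.54 ± 0.06 SE, adjusted p 9.08e-08 by edgeR). Its neighbour Epha8, which lies 93.4 kb away on the same strand, had means of 19.1 ± 1.34 and 22.8 ± 1.64 CPM and rose as well (log2 fold change 0.26 ± 0.06 SE, adjusted p 0.00117 by edgeR).

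The remaining Eph receptors gave no call. Epha5, known as the partner of ephrin-A5 on β cells, had 3.72, 4.17, 3.67 and 3.83 CPM in control and 3.48, 3.65, 3.90 and 4.19 CPM in Klf4 libraries. These values overlapped, with a log2 fold change of -0.02 (95% interval -0.22 to 0.19), whose sign changed under scaling on abundant genes (0.0182). Epha7, at 8.86 ± 0.865 and 7.98 ± 0.353 CPM (SD, n = 4), had a log2 fold change of -0.15 (edgeR adjusted p 0.141), and without control replicate 4 it passed at -0.21 (adjusted p 0.0498). Epha3 did not pass (log2 fold change -0.44 ± 0.28 SE, adjusted p 0.239 by edgeR) on 15 to 34 counts per library. Epha4 and Ephb3 were low and uncertain, at 0.97 and 0.66 (edgeR adjusted p 0.0779 and 0.0547). Epha4 passed without control replicate 4 (1.28, adjusted p 0.0481) or without Klf4 replicate 4 (1.27, adjusted p 0.0347). Ephb3 passed with the replicate number as a block (0.68, adjusted p 0.0387), with scaling on abundant genes (0.049), with no filter (0.0226), and without control replicate 2, control replicate 4 or Klf4 replicate 3 (0.0431, 0.012 and 0.0247). Epha6, with 2 to 16 counts per library, and Ephb1, with at most 2, were below the filter.

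**Figure D2:**
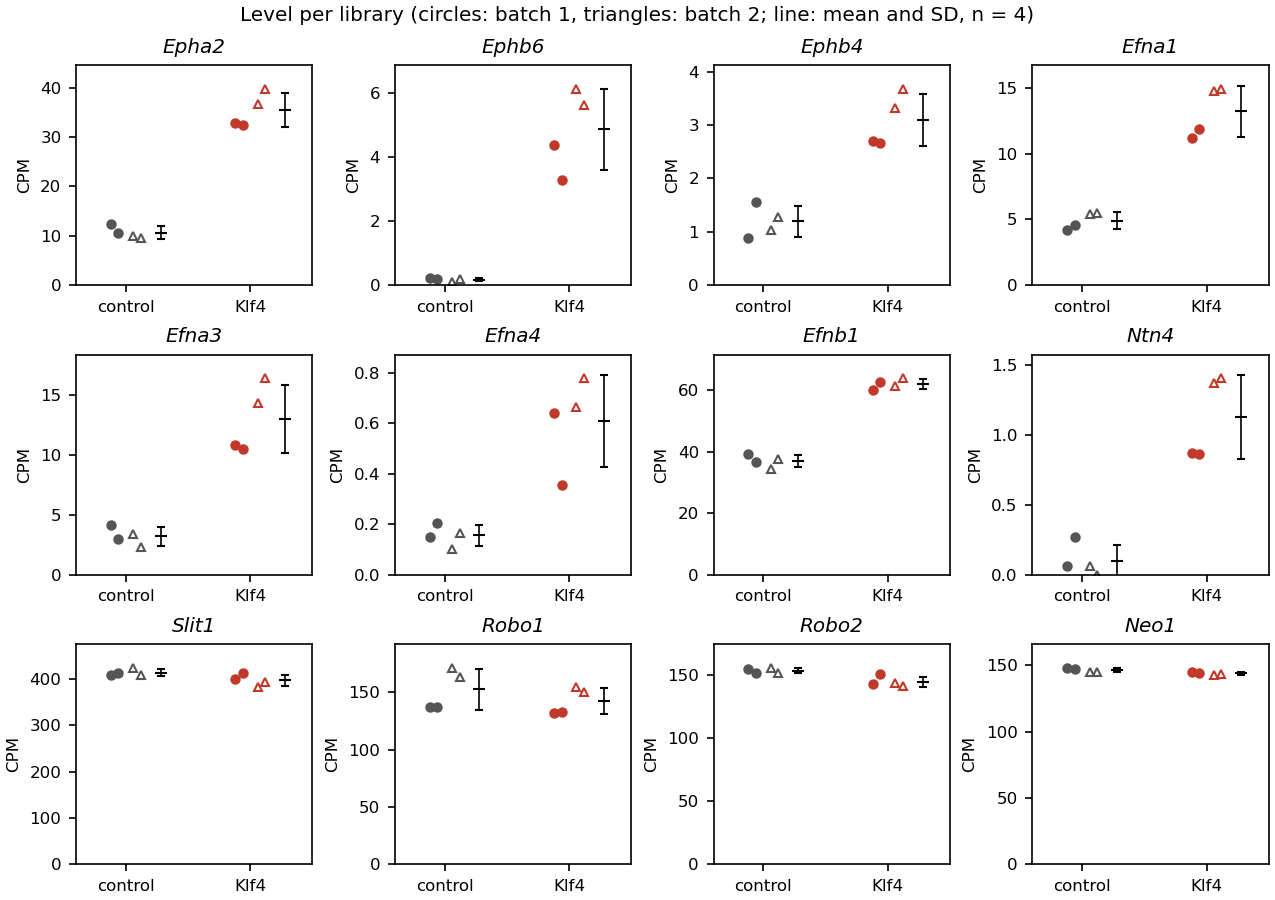
Level in CPM (y axis, starting at 0) of 12 guidance genes in each control and Klf4 library, with circles for batch 1, open triangles for batch 2, and the mean with its SD (n = 4) beside them. The 8 ephrin, Eph and netrin genes of the upper rows separate without overlap. Slit1, Robo1, Robo2 and Neo1 in the bottom row lie close to their control levels, with the Robo2 groups narrowly apart and the others overlapping.

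Of the 3 Slit genes 2 were tested and neither passed. Slit1, a secreted Robo ligand, had 409.8, 413, 424 and 408 CPM in control and 401, 412, 382 and 393 CPM in Klf4 libraries. The groups overlapped, and the log2 fold change was -0.06 (95% interval -0.11 to -0.01, not adjusted for the number of genes, edgeR adjusted p 0.0931). It passed as a decrease of at most 0.09 without control replicate 1 (-0.0884), control replicate 2 (-0.0822) or Klf4 replicate 2 (-0.0836), and with no filter. Slit2 did not pass (log2 fold change 0.29 ± 0.17 SE, adjusted p 0.211 by edgeR). Slit3 was below the filter, with 0, 0, 0 and 2 counts in control and 5, 14, 3 and 2 counts in Klf4 libraries.

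Robo1 and Robo2, the Slit receptors that are known to act in islets, had the only decreases. Robo1 had 137, 138, 171 and 164 CPM in control and 132, 133, 155 and 149.9 CPM in Klf4 libraries. Its batches differed more than its groups, and within each batch the Klf4 values were the lower ones (log2 fold change -0.10 ± 0.03 SE, adjusted p 0.0138 by edgeR). Robo2 had 155, 151, 155 and 151 CPM in control and 143, 150.3, 143 and 141 CPM in Klf4 libraries, with replicate 2 just under the lowest control (log2 fold change -0.09 ± 0.03 SE, adjusted p 0.0224 by edgeR). Neither call held without the batch term (adjusted p 0.441 and 0.0971) or with scaling on abundant genes (0.112 and 0.182). That of Robo2 was also lost without control replicate 3 (0.0518), Klf4 replicate 1 (0.0578) or Klf4 replicate 4 (0.0528).

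Robo4 (ENSMUSG00000032125, chromosome 9, 37401897 to 37415115, plus strand), a Robo typical of endothelial cells, rose from a very low level. It had 0, 0, 1 and 8 counts in control and 20, 16, 32 and 29 counts in Klf4 replicates 1 to 4, and the lowest of the latter was above the highest control (log2 fold change 3.35 ± 0.57 SE, adjusted p 5.37e-05 by edgeR). Control replicate 4 held 8 of the 9 control counts, and without it the fitted log2 fold change was 5.55, a value that rests on 1 control count and depends on the prior count. Among endothelial markers, Cdh5 had no count in a control library and 0.403 CPM in the Klf4 libraries (SD 0.150, n = 4). Kdr had no count in 6 of the 8 libraries and at most 2 in any, and Pecam1 and Tek did not pass the test. Robo3, whose end lies 553 bases from that of Robo4 on the opposite strand, had 2.21, 2.14, 1.75 and 2.15 CPM in control and 2.67, 2.39, 1.88 and 1.92 CPM in Klf4 libraries and did not pass (log2 fold change 0.10 ± 0.14 SE, adjusted p 0.650 by edgeR).

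Of the 4 netrins, 3 rose, against 21.1% of all genes tested and 29.4% of those under 1 CPM in control. Among the 3, Ntn3 and Ntn4 passed the filter only because Klf4 libraries did. Ntn1, the founding secreted netrin, was the most abundant and went from 26.7 ± 2.32 to 35.9 ± 1.82 CPM (SD, n = 4), without overlap (log2 fold change 0.42 ± 0.05 SE, adjusted p 6.92e-07 by edgeR). Ntn4 (ENSMUSG00000020019, chromosome 10, 93640681 to 93747207, plus strand), a netrin of basement membranes, had 3, 13, 3 and 0 counts in control and 45, 39, 72 and 74 counts in Klf4 libraries. All Klf4 values were above all controls, with means of 0.0979 ± 0.117 and 1.13 ± 0.301 CPM (mean ± SD of 4 libraries; log2 fold change 3.47 ± 0.46 SE, adjusted p 1.96e-06 by edgeR). Control replicate 2 held 13 of the 19 control counts, and without it the log2 fold change of Ntn4 was 4.74. Ntn3 (ENSMUSG00000117406, chromosome 17, 24203848 to 24209531, minus strand) had 0.340, 0.288, 0.183 and 0.311 CPM in control and 0.445, 0.663, 0.513 and 0.512 CPM in Klf4 libraries (log2 fold change 0.92 ± 0.32 SE, adjusted p 0.0252 by edgeR). This call was lost with DESeq2 (adjusted p 0.0523) and without control replicate 2 (0.0549), control replicate 3 (0.0934), or Klf4 replicate 2 (0.0905), 3 (0.0587) or 4 (0.06). Ntn3 shares 228 exonic bases with 2 other genes, one of which, Tbc1d24, had 36.6 CPM in both groups. Ntn5 did not pass (log2 fold change 0.61 ± 0.31 SE, adjusted p 0.138 by edgeR).

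Among netrin receptors, 2 of the 4 Unc5 genes rose, against 21.1% of all genes tested, and Neo1 did not pass the test. Unc5b (ENSMUSG00000020099, chromosome 10, 60762593 to 60831581, minus strand) had 41.5, 43.0, 37.6 and 41.0 CPM in control and 50.7, 52.4, 56.7 and 59.2 CPM in Klf4 libraries, without overlap (log2 fold change 0.43 ± 0.05 SE, adjusted p 2.32e-07 by edgeR). Unc5a, the most abundant receptor of the group by CPM per kb, had 85.9 ± 2.63 CPM in control and 102 ± 3.86 CPM in Klf4 libraries and also rose (log2 fold change 0.25 ± 0.03 SE, adjusted p 2.26e-06 by edgeR). Unc5c had 23.8, 26.6, 29.9 and 30.0 CPM in control and 24.0, 26.4, 29.5 and 30.1 CPM in Klf4 libraries, overlapping throughout, with a log2 fold change of -0.01 (95% interval -0.10 to 0.09). Neo1, a receptor of both netrins and repulsive guidance molecules, had 148, 147, 145 and 145 CPM in control and 145, 144, 143 and 144 CPM in Klf4 libraries, and its log2 fold change was -0.02 (95% interval -0.07 to 0.03). The signs for Unc5c and Neo1 changed under scaling on abundant genes (0.0304 and 0.0135). Unc5d was at 0.02 with a wide 95% interval (-0.48 to 0.51). Dcc was below the filter, with 4, 3, 1 and 4 counts in control and 20, 13, 13 and 10 counts in Klf4 libraries, which did not overlap. With no filter applied, the log2 fold change of Dcc was 2.10 (edgeR adjusted p 0.00175) and that of Slit3 was 3.08 (0.0404), fitted on 2 control counts.

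The genes were also set out by their level in control cells. Of the 11 tested genes under 1 CPM in control, 6 rose, 4 of them by a log2 fold change of at least 1, and over all genes of that level 29.4% rose, 26.5% did so by that size and 1.17% fell. Those 4, Ephb6, Robo4, Efna4 and Ntn4, passed the filter only through the Klf4 libraries, so that being tested at this level already favoured higher Klf4 values. Between 1 and 10 CPM, 5 of 11 rose, 3 of them by that size, against 20.8% and 7.38% of all genes, of which 6.53% fell. Between 10 and 100 CPM, 8 of 9 rose, against 18.9% of all genes, and 1 of them, Epha2, by at least 1, against 1.02%. Of all genes of that level 22.4% fell. The 4 genes above 100 CPM, Slit1, Robo1, Robo2 and Neo1, had no increase, and over all genes of that level 12.9% rose, 0.083% by at least 1, and 34.8% fell.

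Levels of different genes were compared as CPM per kb of annotated exon. In control cells Slit1 came first at 69.9 ± 1.25 (SD, n = 4), followed by Unc5a at 20.6 ± 0.632, Neo1 at 16.8 ± 0.186 and Efnb1 at 10.7 ± 0.579. Robo1 (9.24 ± 1.07), Robo2 (9.01 ± 0.130) and Efna5 (8.34 ± 0.551) came next and lay within about 1 SD of Robo1. Unc5b (6.51 ± 0.360) stood below them, and Ntn1 (4.26 ± 0.369) and Epha8 (4.05 ± 0.285) did not differ beyond their spread. Epha8 was thus the most abundant Eph receptor in control cells. After Klf4 transfection Epha2 held that place at 7.59 ± 0.734 against 4.84 ± 0.348 CPM per kb for Epha8, and its rank among the 39 genes went from 13 to 9. Efnb1 ranked above Neo1, Efna3 went from rank 16 to 12 and Ephb6 from rank 32 to 20. Exons of all isoforms were counted in the length, so that genes with many isoforms appear lower.

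**Figure D3:**
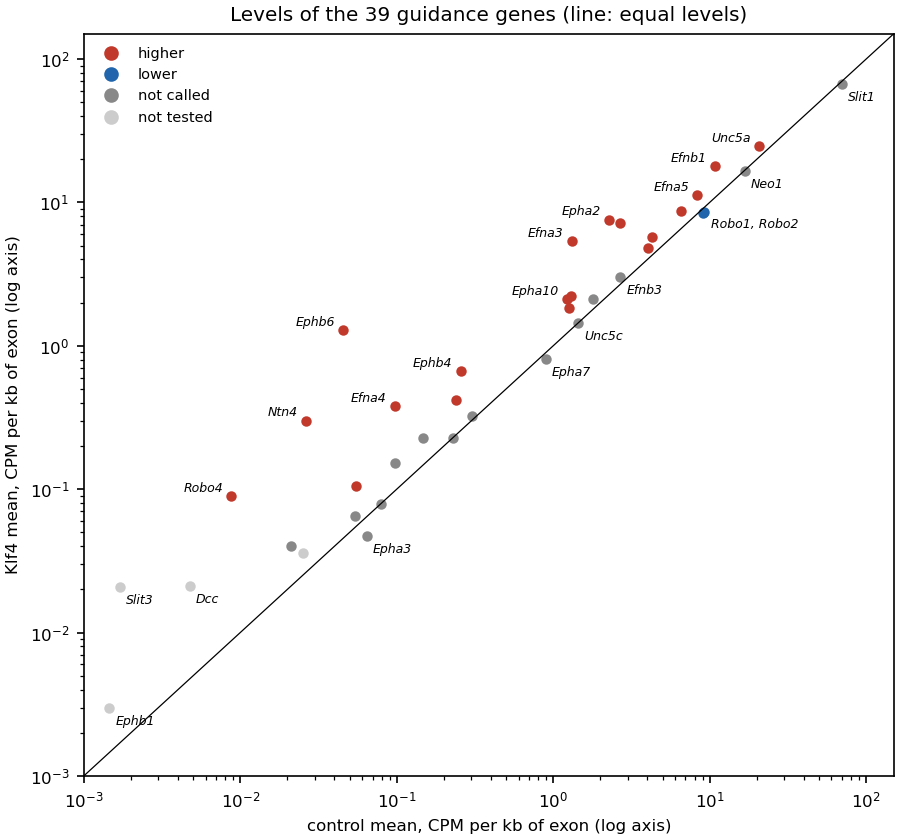
Mean level in CPM per kb of exon in control (x axis) and Klf4 cells (y axis), both on log axes, for the 39 genes, coloured by the result of the edgeR test. Genes above the line of equal levels are higher in Klf4 cells; Ephb6, Ntn4 and Robo4 lie furthest above it among tested genes, and Slit1 lies close to it at the top.

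The effect was then examined within each batch, each with 2 control and 2 Klf4 libraries. All 21 called genes had the same sign in both batches, as did 99.9% of all called genes, whose calls rest on both batches. Of the 19 raised genes 15 had a larger log2 fold change in batch 2, as did 73.8% of all raised genes. Klf4 itself was at 6.79 in batch 1 and 7.16 in batch 2 (edgeR interaction test, adjusted p 0.0057). The difference between batches passed the same test for 2 of the 35 genes, against 0.766% of all genes. Epha2 was at 1.51 in batch 1 and 1.97 in batch 2 (interaction adjusted p 0.0392), and Efna3 at 1.60 in batch 1 and 2.43 in batch 2 (interaction adjusted p 0.0456). With DESeq2 1 of the 35 passed, and none passed without control replicate 4 or without Klf4 replicate 1, 2 or 4. Ephb6 was at 4.26 in batch 1 and 5.33 in batch 2, a difference that did not pass. Robo4 had no count in the batch 1 controls, so its value there is not given. Whether the level of Klf4 sets these differences was not tested.

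**Figure D4:**
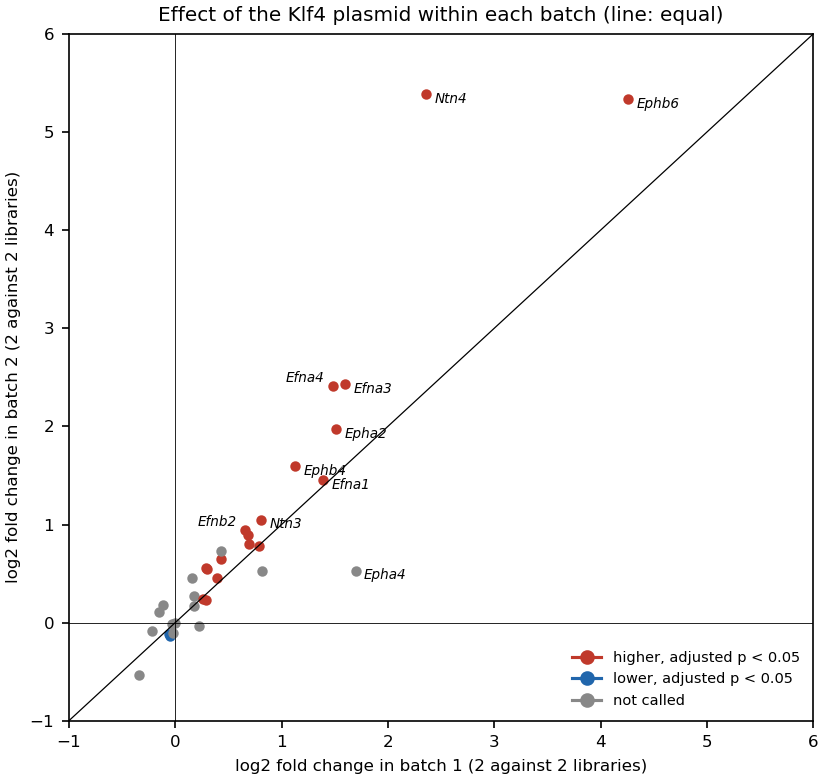
Log2 fold change (Klf4 over control) in batch 1 (x axis) and in batch 2 (y axis) for 34 of the tested genes, 2 against 2 libraries in each batch; Robo4 is left out because its batch 1 controls had no counts. Points above the line changed more in batch 2, as Epha2 and Efna3 did; Ntn4 had only 3 counts in the batch 2 controls.

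Other genes of these pathways were taken from 2 lists, which were also chosen with earlier results of these data known. The first held 17 further ligands, co-receptors and binding partners, of which 15 were tested, 7 rose and none fell. Of all genes tested 21.1% rose and 15.5% fell. The median log2 fold change was 0.14 on this list and -0.01 over all genes. Rgma, a membrane-anchored ligand of Neo1, had 7, 12, 5 and 7 counts in control and 131, 139, 215 and 244 counts in Klf4 libraries. The groups were far apart, at 0.160 ± 0.0613 and 3.58 ± 0.950 CPM (mean ± SD of 4 libraries; log2 fold change 4.44 ± 0.24 SE, adjusted p 6.88e-13 by edgeR). Dscaml1, an adhesion protein related to the netrin receptor Dscam, rose on few counts (log2 fold change 1.53 ± 0.37 SE, adjusted p 0.00223 by edgeR), with 1 overlapping pair of libraries. Not all control libraries reached the filter's level (0.204 CPM) for Rgma and Dscaml1. Both thus passed the filter only because Klf4 libraries did, and being tested already favoured an increase. Flrt3, which binds Unc5 receptors, had 1.42, 1.87, 1.72 and 1.10 CPM in control and 3.46, 3.82, 3.33 and 3.81 CPM in Klf4 libraries (log2 fold change 1.24 ± 0.15 SE, adjusted p 5.27e-07 by edgeR).

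The second list held 57 intracellular effectors, of which 55 were tested, 22 rose and 11 fell, with a median log2 fold change of 0.06. Thus 33 of the 55 changed, where 36.6% of all genes did, 21.1% upwards and 15.5% downwards. Most of these effectors lay above 10 CPM in control, where calls were more frequent than over all genes. Of all genes at 10 to 100 CPM 18.9% rose and 22.4% fell, and of those at 100 CPM or more 12.9% rose and 34.8% fell. The sum over this list was 5627 to 5710 CPM in control and 5676 to 5797 CPM in Klf4 libraries. Ngef, which encodes ephexin-1, a guanine nucleotide exchange factor bound by Eph receptors, had 25, 17, 9 and 2 counts in control and 576, 447, 767 and 765 counts in Klf4 libraries. Not all control libraries reached the filter's level (0.204 CPM), so Ngef passed the filter only because Klf4 libraries did. Its mean went from 0.276 ± 0.211 to 12.5 ± 2.39 CPM (mean ± SD of 4 libraries; log2 fold change 5.49 ± 0.22 SE, adjusted p 3.46e-15 by edgeR). Arhgef15, which encodes the related ephexin-5, had 3.46, 3.12, 4.30 and 3.94 CPM in control and 9.46, 7.55, 13.0 and 12.7 CPM in Klf4 libraries, without overlap (log2 fold change 1.52 ± 0.09 SE, adjusted p 6.5e-12 by edgeR). Srgap1, a GTPase-activating protein recruited by Robo receptors, had 8.67, 9.06, 5.21 and 6.19 CPM in control and 18.8, 17.4, 17.5 and 19.7 CPM in Klf4 libraries, again without overlap (log2 fold change 1.35 ± 0.10 SE, adjusted p 1.77e-10 by edgeR). Ngef was at 4.58 in batch 1 and 6.98 in batch 2 (edgeR interaction test, adjusted p 0.00752), with 9 and 2 counts in the batch 2 controls. Srgap1 was at 1.03 and 1.71 (interaction adjusted p 0.00949), and for Arhgef15 the difference between batches did not pass (0.64). The decreases were small: Trim9, a ubiquitin ligase that binds Dcc, was at -0.32, Srgap3 at -0.18 and Grip1, a scaffold of ephrin-B proteins, at -0.18 (edgeR adjusted p 6.17e-07, 0.0258 and 0.00675). The call for Srgap3 was lost without the batch term (0.21), with scaling on abundant genes (0.0792), and without control replicate 3 (0.0756), Klf4 replicate 2 (0.0525) or Klf4 replicate 4 (0.0608).

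**Figure D5:**
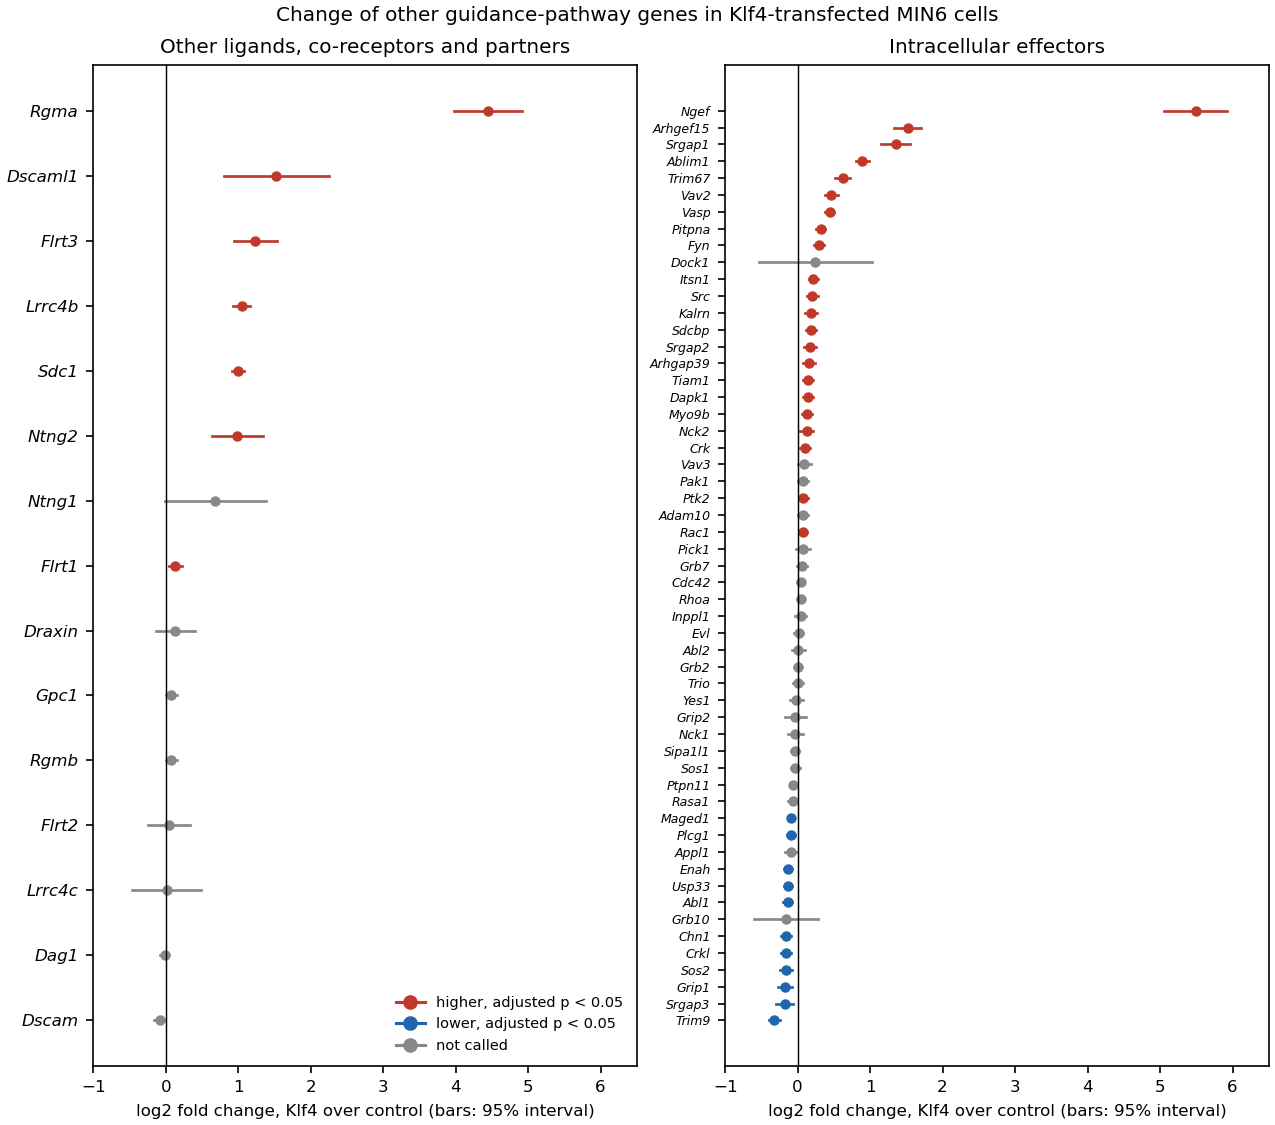
Log2 fold change (x axis, Klf4 over control, with its 95% interval from the standard error) of 15 partner genes (left) and 55 effector genes (right) that were tested, ordered by size. Rgma and Ngef stand apart at the top of their lists, and the decreases among effectors are all smaller in size than 0.4.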

How the data were processed

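Polyadenylated RNA of 8 MIN6 samples was sequenced. The authors deposited raw, whole-number counts for each gene in every library. FastQC, STAR, featureCounts, edgeR and the build mm10 are named in the submitters' processing notes, without versions, settings or strand; the table's name adds cutadapt. All 55536 pairs of symbol and identifier matched GENCODE M21 (GRCm38), used for positions and exonic lengths.

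Counts were fitted in edgeR 4.0.16 (R 4.3.3): filterByExpr with a minimum count of 10 (18266 genes kept), TMM factors (0.996 to 1.005), terms for batch and plasmid, the quasi-likelihood test, and Benjamini-Hochberg adjustment over all tested genes. A call is an adjusted p under 0.05. SEs were derived from the F statistic and intervals from the SEs. The procedure was tested on simulated data without a batch effect, in which only genes above 1 CPM were changed. It was thus not tested on changes of genes at lower levels. Figures were drawn with matplotlib 3.10.9.

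Alternatives were no batch term, the replicate block, DESeq2 size factors, TMM on genes of average log2 CPM of at least 6 (scaling on abundant genes), DESeq2 1.42.0, limma-voom (limma 3.58.1), 2 other filters, a threshold of 0.01 and omission of each library. Same-numbered libraries deviated together (r 0.459 to 0.614 over 10485 genes). Once batch means were removed r was -0.0463 in batch 1 and 0.0783 in batch 2. Beyond the shared batch, these values show no pairing by the replicate number.

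The genes and lists were chosen with earlier results of these data known. The naming rule was: all 39 genes, with every library's value for those called at 0.5 or more on the log2 scale, or largest in their family; of each list, the 3 highest and 3 lowest called genes. No 2 libraries of a group agreed within sampling noise. The labels number the replicates and do not say whether they were separate cultures, so p-values measure the spread between these libraries, which may be technical.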

Additional observations from a re-analysis of the deposited data

Results flagged for a closer look

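A library stood far from the other 3 of its group in 3 of 70 checks over the tested genes, and about 3.5 such cases (1 in 20) would arise by chance. For Epha10, Klf4 replicate 4 was at 18.13 CPM, against 13.8 to 14.4 CPM in the rest of its group. For Robo3, control replicate 3 was at 1.745 CPM, against 2.14 to 2.21 CPM in the other controls. For Robo4, control replicate 4 was at 0.1657 CPM, which is 8 counts, against 0 to 0.0203 CPM in the others.

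By the edgeR interaction test 2 of the 35 ephrin, Slit and netrin family genes tested responded differently in the 2 batches. The log2 fold change was larger in batch 2 by 0.4586 for Epha2 and by 0.8306 for Efna3, with 4 of 4 Klf4 libraries above all controls for both.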

How the results depend on the processing

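Of the 21 called genes, 18 kept their call and direction in every one of the 16 alternative fits that tested them, and Robo1, Robo2 and Ntn3 did not. Without the batch term 4116 of all genes changed, against 6684, and 18 effector genes against 33. The number of genes that fell went from 2 to 0 without the batch term, with scaling on abundant genes and at the threshold of 0.01, and was 1 to 3 when a library was left out. The number whose effect differed between batches was 1 with DESeq2 and 0 to 2 when a library was left out, against 2. With a replicate block instead of batch, 6284 of all genes and 22 of the 35 changed (20 rose and 2 fell). Ephb3 was the only one of the 35 genes whose call changed. Genes without a call changed sign near 0: Epha5 to 0.0182, Neo1 to 0.0135 and Unc5c to 0.0304 with scaling on abundant genes, Unc5c to 0.0059 at 1 CPM in 4 libraries, and Unc5d to -0.0073 without the batch term. Leaving out a library gave -0.0698 to 0.0264 for Epha5, -0.0536 to 0.0132 for Unc5c and -0.1152 to 0.1435 for Unc5d. The causes were not tested. Genes with fewer than about 20 counts per library, such as Epha6, Ephb1, Slit3 and Dcc, are limited by depth.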
